A study of Mus musculus with 1298 samples.

Results

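The 3 Mef2 factors described here are the genes *Mef2a*, *Mef2c* and *Mef2d*. They were taken by symbol from the count tables, which share 15147 genes between the single-cell platforms, and each of the 3 was present in the 10x, the Smart-seq2 and the bulk table. Every cell came from mouse embryos that carried *Pax7CreER:R26R-stop-EYFP* and received tamoxifen (75 µg per g) at embryonic day (E) 9.5, so that YFP stays on in cells whose ancestors expressed *Pax7* at induction. Head, limbs and viscera were removed, embryos of a day were pooled, and YFP+ cells were sorted. Single cells of 3 days (E12.5, E14.5, E16.5) were profiled by droplets (10x, which counts molecules, UMIs) and in plates (Smart-seq2, which reads whole transcripts). Bulk RNA came from cells labelled E16.5 that were sorted as Pdgfra+ (4 libraries, Thy1+ and Thy1- together) or as Pdgfra-/Cd36+ (2 libraries), and from Pdgfra+ cells labelled E14.5 that were cultured in DMEM (6 libraries) or in adipogenic differentiation medium, ADM (6 libraries). The study's text gives an earlier day than the labels for its sorted Thy1- cells, so the day of part of the sorted Pdgfra+ libraries is uncertain. All groups carried the transgenes and received tamoxifen.

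Mef2 proteins are MADS-box transcription factors that bind A/T-rich sites in the promoters and enhancers of muscle genes. They act together with the basic helix-loop-helix factors MyoD and myogenin, are held inactive by class IIa histone deacetylases, and are released by calcium-dependent kinases and p38. *Mef2c* is known for its part in skeletal muscle, heart, vessel, neural crest and neuron development, while *Mef2a* and *Mef2d* are known for their presence in many tissues.

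In GENCODE vM21 on GRCm38, *Mef2a* (ENSMUSG00000030557) spans chr7:67231163-67372858 on the minus strand, *Mef2c* (ENSMUSG00000005583) spans chr13:83504034-83667080 on the plus strand, and *Mef2d* (ENSMUSG00000001419) spans chr3:88142372-88172086 on the plus strand. Their promoter windows are shown because Mef2 and MyoD family proteins bind short words that can be read in them. Each window runs from 250 bases before to 20 bases after an annotated start (RefSeq, GRCm38.p6), and capitals mark an E-box (CANNTG, the word bound by MyoD family factors, the same on both strands) or a MEF2 site with a C at its start or a G at its end.
Mef2a, chr7:67372839-67373108, minus strand: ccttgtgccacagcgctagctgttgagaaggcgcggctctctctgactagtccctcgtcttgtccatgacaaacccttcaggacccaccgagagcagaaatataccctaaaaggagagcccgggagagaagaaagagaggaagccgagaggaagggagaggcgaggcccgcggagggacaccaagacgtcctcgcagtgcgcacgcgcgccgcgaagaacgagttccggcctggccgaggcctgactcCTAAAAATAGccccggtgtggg
Mef2c, chr13:83503784-83504053, plus strand: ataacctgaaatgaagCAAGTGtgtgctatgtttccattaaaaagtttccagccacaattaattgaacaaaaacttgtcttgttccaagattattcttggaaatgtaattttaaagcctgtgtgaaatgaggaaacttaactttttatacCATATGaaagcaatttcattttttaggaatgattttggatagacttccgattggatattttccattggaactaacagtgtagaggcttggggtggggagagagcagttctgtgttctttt
Mef2d, chr3:88142122-88142391, plus strand: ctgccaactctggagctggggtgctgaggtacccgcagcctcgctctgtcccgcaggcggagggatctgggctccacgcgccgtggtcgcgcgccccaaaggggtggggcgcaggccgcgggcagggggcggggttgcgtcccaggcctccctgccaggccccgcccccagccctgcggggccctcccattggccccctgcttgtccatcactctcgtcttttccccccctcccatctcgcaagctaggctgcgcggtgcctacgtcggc
The *Mef2a* window held 1 MEF2 site, CTAAAAATAG, beginning at position -2 from the start, and no E-box. The *Mef2c* window printed here held 2 E-boxes, CAAGTG at -234 and CATATG at -100, and no MEF2 site. The *Mef2d* window held neither. Of the other *Mef2c* starts in the same table, the window at chr13:83523406-83523675 held neither word, and the window at chr13:83573357-83573626 held 1 E-box, CAGATG at -245. Of 32851 mouse promoter windows of the same length, 68.923% held an E-box and 1.75% held a MEF2 site. These matches describe letters only, and no peak or binding measurement was part of the data.

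After the filters, 3852 of 3916 deposited cells were kept, 2921 from 10x and 931 from Smart-seq2, and they fell into 17 clusters that were named from marker genes. The names follow those of the study and are meant as "-like": early muscle (EM, 18.4% of 10x and 17.3% of Smart-seq2 cells), late muscle (LM, 5.51% and 7.73%), late progenitors (LP, 20.8% and 16.3%), dermal fibroblasts (DF, 16.2% and 12.7%), early progenitors (EP), brown adipocytes (BA), pericytes (PE), neurons (N) and neural progenitors (NP). LM was 1 cluster at all days, led by *Myl1* and *Tnni1*. EM was made of cluster 8 at E12.5 (led by *Erbb3*), cluster 4 at E14.5 (*Msc*) and cluster 12 at E16.5 on 10x (*Col15a1*). DF was cluster 9 at E14.5 (*Crabp1*) and cluster 2 at E16.5 (*Col7a1*), and LP was clusters 3, 6 and 11. Cluster 6 was led by *Clec3b* and *Col5a3*, and cluster 11 by *Nppc*. Cluster 3, the largest of LP, was led by *Tnmd*, *Aspn* and *Cnmd*, genes known from tendon and cartilage, and of its 10 leading genes *Ogn* alone was an LP marker, so comparisons with LP are also given without it. All cells of 1 class, platform and day (a pool) were added up, and the values below are CPM of those sums (counts scaled to a total of 1000000). On 10x the median cell held 2185 UMIs on E12.5, 5930 on E14.5 and 1607.5 on E16.5, so the E16.5 sums were the shallowest. The 8 LM markers, such as *Myog* and *Ttn*, were all present in each LM sum and added to 5113 to 14405 CPM there. The same list added to 448.5 to 899.9 CPM in EM, 9.95 to 32.9 in LP and 13.98 to 28.2 in DF. Markers of immune cells stayed at or under 11.7 CPM in these 4 classes, and those of endothelial cells, which also express *Mef2c*, added to 11.7 to 112.7 CPM in DF and 44.3 to 168.7 in LP.

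*Mef2c* was high in late muscle and in dermal fibroblasts and low in early muscle and late progenitors. In LM its summed level on 10x was 1093 CPM on E12.5, 701 on E14.5 and 428.3 on E16.5. On Smart-seq2 it was 140.2 CPM on E14.5, 190.6 on E16.5 and 611 in the 13 LM cells of E12.5, which were too few for the tests. In DF it was 115.9 CPM at E14.5 and 277.5 at E16.5 on 10x, and 94.9 and 244.8 on Smart-seq2. These sums all lay above every EM and LP sum of the same platform. In EM it was 47.9, 19.3 and 18.4 CPM, from the earliest to the latest day, on 10x, and 35.2, 10.1 and 20.1 on Smart-seq2. In LP it was 23.3 and 21.9 CPM at E14.5 and E16.5 on 10x, and 13.1 and 10.5 on Smart-seq2. The EM and LP ranges overlapped on both platforms. Within LP, over all days, *Mef2c* was at 27.4 CPM in cluster 3, 22.7 in cluster 6 and 12.9 in cluster 11 on 10x, and at 17.02, 13.6 and 0.356 CPM on Smart-seq2, so cluster 11 was the lowest of the 3 on both platforms.

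*Mef2a* was present in all 4 classes and stood apart in LM. In LM it reached 78.1, 176.9 and 124.3 CPM at the 3 days on 10x, and 534.6 and 343.2 CPM at E14.5 and E16.5 on Smart-seq2. In EM it was 54.4, 40.9 and 33.1 CPM on 10x, and 135.4, 113.9 and 81.8 on Smart-seq2. Every LM sum was therefore above every EM sum of its platform. In LP it was 67.2 and 62.99 CPM on 10x and 82.9 and 123.4 on Smart-seq2. In DF it was 60.6 and 32.7 CPM on 10x and 136.5 and 91.1 on Smart-seq2. EM and DF overlapped on both platforms. LP overlapped both on Smart-seq2, while on 10x both LP sums lay above every EM and DF sum.

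*Mef2d* was also present in all 4 classes, and within each pool its LM sum was the highest of these 4. On 10x at E12.5 it was at 45.4 CPM in EP, outside these 4, above the 39.03 CPM of LM. In LM it was 39.03, 42.1 and 110.5 CPM on 10x and 255.1 and 138.3 on Smart-seq2. In EM it was 21.8, 19.9 and 36.8 CPM on 10x and 47.6, 91.2 and 48.9 on Smart-seq2, under every LM sum of its platform. In DF it was 40.7 and 67.6 CPM on 10x and 134.3 and 73.96 on Smart-seq2. In LP it was 20.004 and 41.1 CPM on 10x and 57.6 and 45.9 on Smart-seq2. Within each pool the DF sum was above the LP sum, while over the 2 days the DF and LP ranges overlapped on 10x and did not on Smart-seq2.

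**Figure D1:**
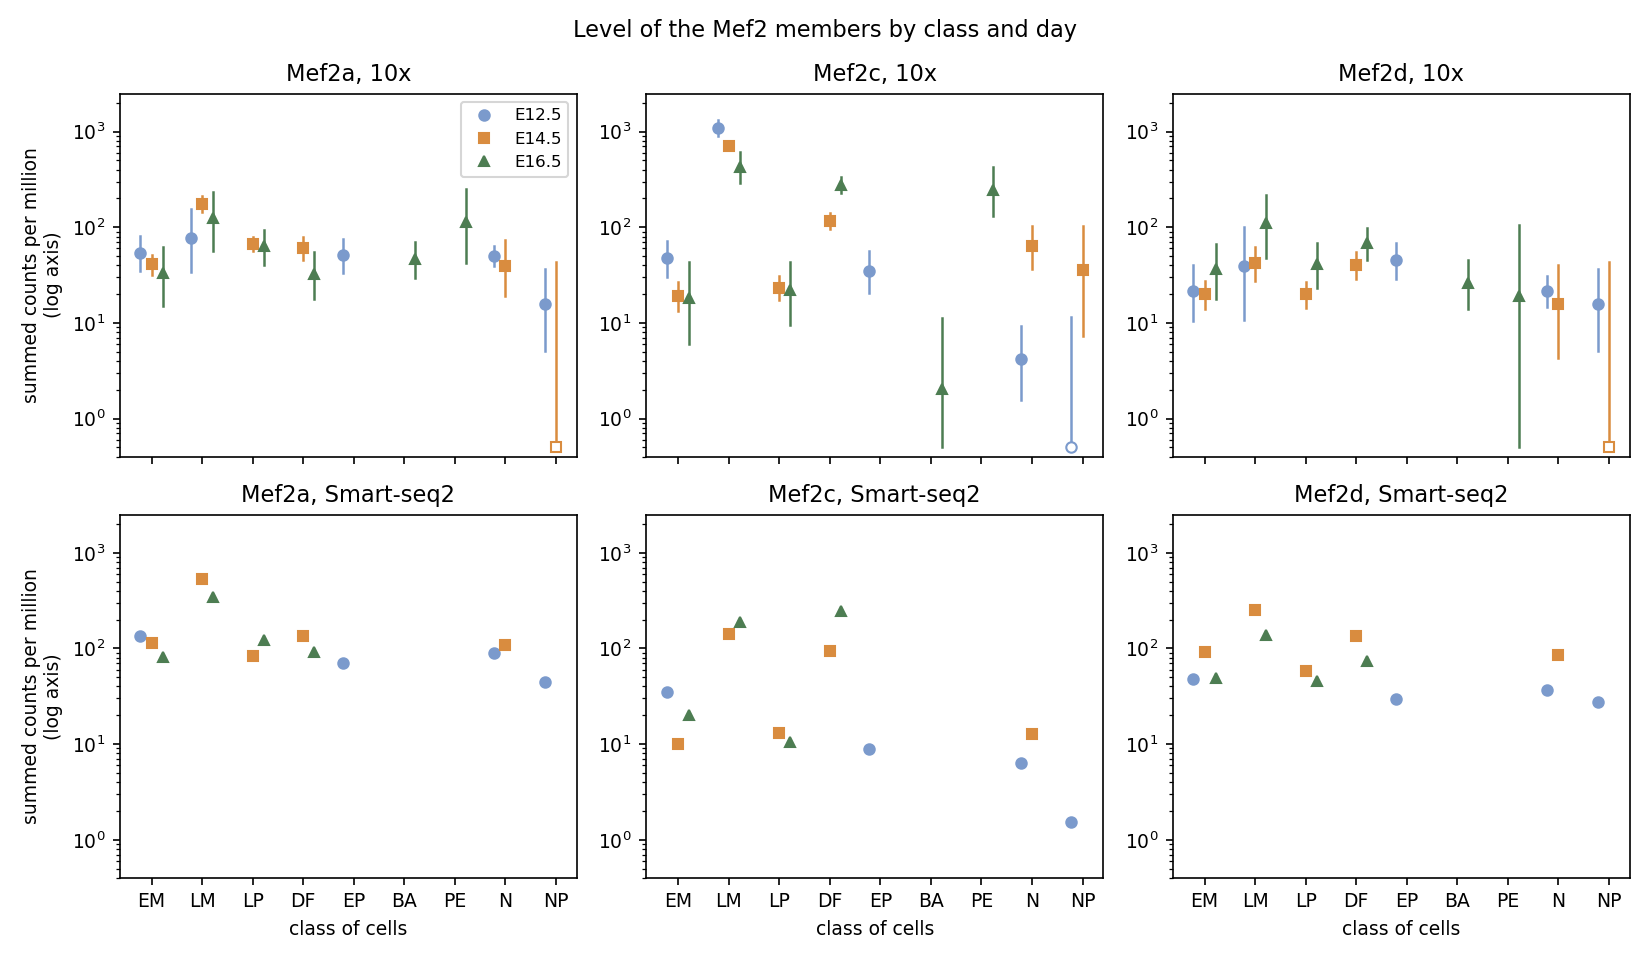
Summed CPM (log axis) of *Mef2a*, *Mef2c* and *Mef2d* by class of cells and embryonic day, 10x above and Smart-seq2 below, for sums of at least 20 cells. Bars on 10x are exact 95% Poisson intervals, which cover counting error only, and open symbols mark a sum with no count. *Mef2c* lies between 428.3 and 1093 in LM on 10x and between 18.4 and 47.9 in EM, while *Mef2a* and *Mef2d* stay within a narrower band.

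The step from early to late muscle is the step at which myoblasts leave the cycle and build contractile fibres. All 3 members were higher in LM than in EM, in a quasi-likelihood test in edgeR, adjusted by Benjamini-Hochberg over 13048 genes. *Mef2c* differed by 4.15 on the log2 scale (standard error, SE, 0.36, adjusted p = 2.21e-07). *Mef2a* differed by 1.90 (SE 0.28, adjusted p = 6.13e-05) and *Mef2d* by 1.35 (SE 0.22, adjusted p = 0.000155). Of all genes tested, 25.2% passed in this comparison, 6.91% as higher in LM. Within single pools the log2 ratio of LM over EM was above 0 in 5 of 5 pools for each member, from 3.25 to 5.18 for *Mef2c*, from 0.52 to 2.23 for *Mef2a* and from 0.84 to 1.59 for *Mef2d*. The 5 LM sums and 6 EM sums come from pools of embryos that were each measured a single time, so p-values measure the spread of class differences between platforms and days.

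Dermal fibroblasts and late progenitors both arise among Pdgfra+ cells, and the comparison of DF with LP asks which genes separate the dermal branch. *Mef2c* was higher in DF by 3.46 (log2, SE 0.39, edgeR adjusted p = 1.83e-05) and *Mef2d* by 0.91 (SE 0.23, adjusted p = 0.0159), against a background of 8.12% of genes that passed, 3.39% as higher and 4.74% as lower. *Mef2a* differed by -0.18 (SE 0.29, adjusted p = 0.809) and did not pass. The log2 ratio of DF over LP within a pool was above 0 in 4 of 4 pools for *Mef2c*, from 2.31 to 4.55, and for *Mef2d*, from 0.69 to 1.22. For *Mef2a* it was above 0 in 1 of 4 pools. The *Mef2d* call was lost without 10x E14.5 (0.92, adjusted p = 0.101), without 10x E16.5 (0.95, adjusted p = 0.0539) and without Smart-seq2 E14.5 (0.79, adjusted p = 0.0694). Without LP cluster 3, an alternative chosen after seeing the data that left LP with fewer cells, *Mef2c* was 4.49 higher in DF (adjusted p = 8.89e-06), and *Mef2d* differed by 0.66 and no longer passed (adjusted p = 0.186). Pericyte markers, those of the other class high in *Mef2c*, added to 192.1 CPM in DF and 101.4 in LP on 10x at E14.5, and to 177.3 and 208.1 at E16.5. On Smart-seq2 they added to 614.9 CPM in DF and 385.04 in LP at E14.5, and to 285.5 and 273.1 at E16.5, so DF was higher in 3 of 4 pools. The median 10x cell held 5479 UMIs in DF and 5423 in LP at E14.5, and 1360 and 1467.5 at E16.5. The part of these markers and of depth in the differences was not tested.

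LM and DF were both high in *Mef2c*, and the direct test between them did not pass. *Mef2c* was 0.76 higher in LM (log2, SE 0.35, edgeR adjusted p = 0.0904), with a ratio above 0 in 3 of 4 pools and a range from -0.36 to 2.60. *Mef2a* was higher in LM by 1.76 (SE 0.29, adjusted p = 8.01e-05) and *Mef2d* by 0.67 (SE 0.22, adjusted p = 0.0218), where 41.9% of all genes passed. That *Mef2d* call was lost in 10x alone (0.41, adjusted p = 0.444) and at a clustering resolution of 0.4 (0.52, adjusted p = 0.0651). The 10x pools alone gave 1.90 for *Mef2c*, a value past the threshold (adjusted p = 2.69e-09). The test of the difference between platforms for this contrast gave 1.39 (SE 0.66, p = 0.0540, adjusted p = 0.561 over all genes). Leaving out Smart-seq2 E16.5 brought *Mef2c* to 1.49 (adjusted p = 0.000956), leaving out Smart-seq2 E14.5 to 1.04 (adjusted p = 0.0243), and leaving out Smart-seq2 E12.5 to 1.05 (adjusted p = 0.0146). Without LP cluster 3 in the fit it was 1.07 (adjusted p = 0.0138).

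DF exceeded EM in *Mef2c* by 3.39 (SE 0.37, edgeR adjusted p = 2.17e-06) and in *Mef2d* by 0.68 (SE 0.22, adjusted p = 0.0305), while 25.9% of genes passed. That *Mef2d* call was lost without any of 5 of the 6 pools, with values from 0.59 to 0.70, and without LP cluster 3 in the fit (0.59, adjusted p = 0.0595). *Mef2a* differed between DF and EM by 0.13 (SE 0.29, adjusted p = 0.798). LM exceeded LP in *Mef2a* by 1.59, in *Mef2c* by 4.22 and in *Mef2d* by 1.58, with edgeR adjusted p-values of 0.000256, 1.39e-07 and 2.14e-05, where 45.4% of genes passed, 30.1% as lower. Between EM and LP no member passed, with differences of -0.31 (SE 0.30), 0.07 (SE 0.37) and 0.23 (SE 0.23) for *Mef2a*, *Mef2c* and *Mef2d*, while 32.7% of genes did. Without LP cluster 3 the *Mef2c* difference between EM and LP was 1.24 (SE 0.48, edgeR adjusted p = 0.0636) and still did not pass. For *Mef2a* and *Mef2d* it was then -0.33 and 0.064, where 26.5% of genes passed. LM then exceeded LP by 1.74, 5.56 and 1.60 for *Mef2a*, *Mef2c* and *Mef2d*, all past the threshold, where 40.7% of genes passed.

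**Figure D2:**
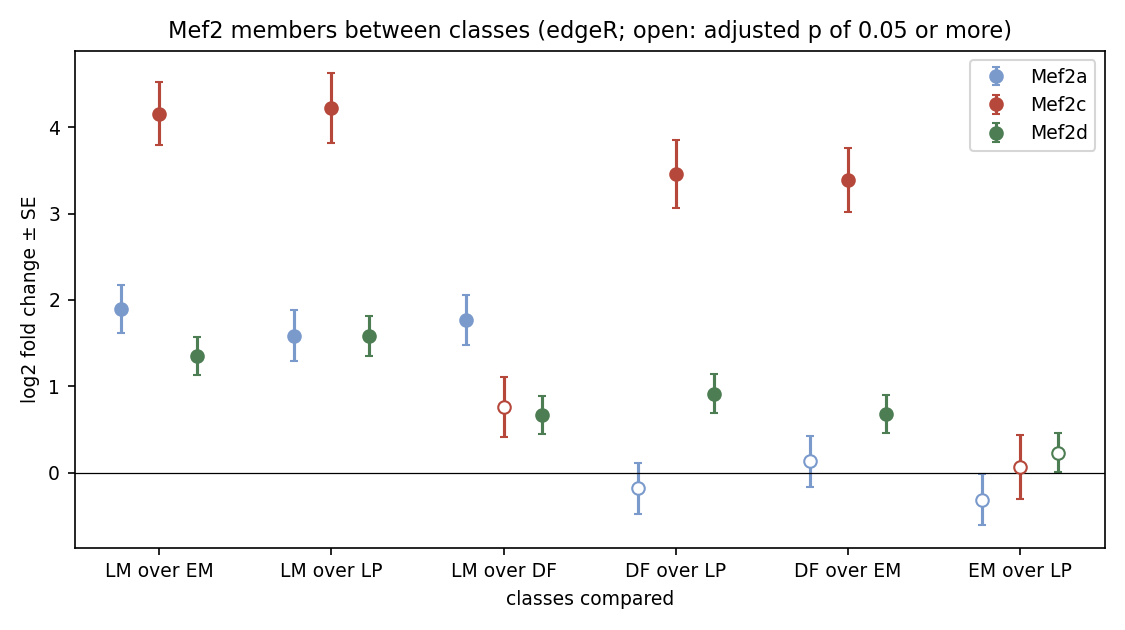
Log2 fold change with its standard error for each member in 6 comparisons of classes (edgeR, 19 sums). *Mef2c* lies between 3.39 and 4.22 in the 4 comparisons of LM or DF with EM or LP, and *Mef2a* passes only where LM is compared.

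Across days, no member passed the edgeR test in any of 4 class-by-day comparisons, and no DESeq2 fit of them passed. The nearest was *Mef2c* in DF from E14.5 to E16.5, 1.59 higher on the log2 scale (SE 0.48, p = 0.00414, adjusted p = 0.181), where 0.582% of genes passed, and the only member with an unadjusted p under 0.05. The step was 1.26 on 10x and 1.37 on Smart-seq2. By plate, the 3 DF plates of E14.5 held 37.1 to 115.4 CPM and the 4 plates of E16.5 held 203.5 to 287.8 CPM, with no overlap. The labels name no animal for a plate, so plates of a day were not taken as replicates. Without 10x E14.5 the step was 1.55 (adjusted p = 0.0490). The DF cells of the earlier day lay in cluster 9 and those of the later day in cluster 2. In LM, *Mef2c* fell by 0.71 on 10x and was 0.44 higher on Smart-seq2 between the same days, and the fitted step was -0.53 (SE 0.49, adjusted p = 0.726), where 4.04% of genes passed. The *Mef2c* step in DF less that in LM was 2.12 (SE 0.68, p = 0.00625, adjusted p = 0.136), so the difference was not past the threshold. In EM, *Mef2c* changed by -0.55 from E12.5 to E16.5 (SE 0.51, adjusted p = 0.605, where 6.3% of genes passed) and by 0.75 from E14.5 to E16.5 (SE 0.52, adjusted p = 0.782, where 0.559% did).

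*Mef2a* was lower at E16.5 than at E14.5 in EM, LM and DF on both platforms, by 0.31 to 0.89 on the log2 scale, but the fitted steps of -0.33, -0.61 and -0.43 in EM, LM and DF had adjusted p-values from 0.535 to 0.949. In LP, for which no day step was fitted, the *Mef2a* step was -0.09 on 10x and 0.57 on Smart-seq2. The *Mef2d* steps had opposite signs on the platforms in all 4 classes. They were 0.89 in EM, 1.39 in LM, 1.04 in LP and 0.73 in DF on 10x. On Smart-seq2 they were -0.90, -0.88, -0.33 and -0.86. Depth on 10x fell between these days, as given above, and its part in the opposite signs was not tested.

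In LM on Smart-seq2 at E16.5 the *Mef2c* level rested on few cells. The 4 plates gave 634, 116.6, 5.88 and 39.4 CPM, and the highest plate held 3394 of the 4521 *Mef2c* counts in 8 of 27 cells. The 3 LM plates of E14.5, with 5 to 16 cells, gave 49.4, 146.4 and 161.5 CPM. *Mef2a* varied less between the same plates, from 291.6 to 384.98 CPM at E16.5.

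The share of single cells with a *Mef2c* count followed the order of the levels on 10x. There, 59.6% of LM cells had a *Mef2c* UMI (exact 95% binomial interval 51.6 to 67.3%), as did 31.4% of DF cells (27.3 to 35.8%), 8.38% of EM cells (6.18 to 11.1%) and 6.57% of LP cells (4.73 to 8.84%). As a background, 1 BA cell had one, or 0.629% (0.0159 to 3.45%), at a median of 3032 UMIs. Thinned to 1000 UMIs per cell, the shares were 33.96% in LM, 15.6% in DF, 2.51% in EM and 1.70% in LP. On Smart-seq2, 72.2% of LM and 74.6% of DF cells had *Mef2c* counts, against 26.1% of EM and 24.3% of LP cells, so on this platform the share was not higher in LM than in DF. *Mef2a* was found in 46.6% of LM cells on 10x and in 13.3 to 21.3% of cells of the other 3 classes, and in 100% of LM cells on Smart-seq2. *Mef2d* was found in 19.9% of LM cells on 10x and in 8.37 to 12.0% of EM, LP and DF cells. Intervals cover counting error only, and cells of a pool are not replicates.

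**Figure D3:**
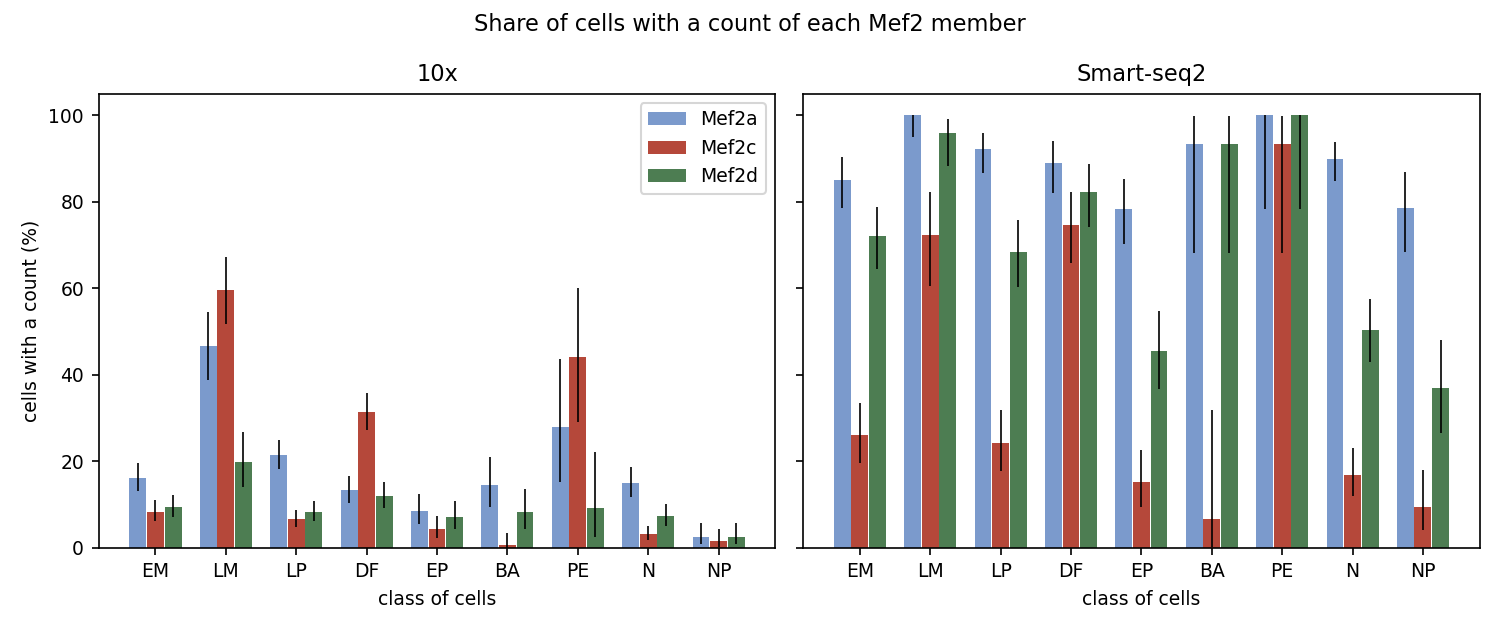
Share of cells with a count of each member by class, 10x at left and Smart-seq2 at right, with exact 95% binomial intervals. *Mef2c* reaches 59.6% in LM and 31.4% in DF on 10x and stays at or under 8.38% in EM, LP, EP, BA, N and NP, while *Mef2a* and *Mef2d* reach most cells of every class on Smart-seq2 with the exception of *Mef2d* in EP and NP.

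Over all days on 10x, the order of *Mef2c* levels was LM (727 CPM, exact 95% Poisson interval 668 to 790), PE (237.1, 169.4 to 322.9), DF (165.9, 145.1 to 188.8), EP (34.7, 20.2 to 55.5), EM (24.5, 18.7 to 31.4), LP (23.1, 17.5 to 29.9), N (13.7, 8.68 to 20.5), NP (7.35, 1.52 to 21.5) and BA (1.97, 0.0499 to 11.0). The intervals of PE and DF overlapped, as did those of each neighbouring pair from EP down to BA. The classes do not share days equally, and within a day the order turned for some neighbours. At E16.5 DF was at 277.5 CPM and PE at 247.5, and at E12.5 EM was at 47.9 CPM and EP at 35.1. The order of *Mef2a* was LM (158.7 CPM), PE (77.1), LP (66.4), EP (55.1), DF (51.9), N (48.8), BA (45.4), EM (42.5) and NP (12.3). The intervals of LM (131.83 to 189.5) and PE (41.04 to 131.79) lay next to each other without overlap, those of the other classes lay below LM, and PE down to EM overlapped from neighbour to neighbour. *Mef2d* lay between 20.8 and 49.05 CPM in all classes but NP (12.3 CPM, 3.98 to 28.6), and each neighbouring pair overlapped.

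The pericyte-like cells, led by *Rgs5* and *Ndufa4l2*, had *Mef2c* at 232.4 CPM in 13 cells at E14.5 and 247.5 CPM in 30 cells at E16.5 on 10x, and at 357.5 CPM in 15 cells at E16.5 on Smart-seq2. On Smart-seq2, 14 of 15 of these cells had a count. LM markers were at 0 in the E16.5 sum of 10x. In neurons *Mef2c* was 4.22 CPM at E12.5 and 63.5 CPM at E14.5 on 10x, and 6.29 and 12.8 CPM on Smart-seq2, so both platforms had the higher value at the later day. The 10x value of E14.5 came from 16 UMIs in 7 cells, and clusters 13 and 15 held neurons of E14.5 and none of E12.5, so the days differ in their mix of neuron clusters. In brown adipocyte-like cells at E16.5 on 10x, *Mef2c* had 1 count against 8 in the LP cells of the same library, a log2 ratio of -3.44 with an exact conditional 95% interval from -8.91 to -0.54. There the ratios of *Mef2a*, -0.44 (-1.34 to 0.46), and of *Mef2d*, -0.64 (-1.84 to 0.53), had intervals that held 0.

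Myogenin (*Myog*) is the factor that drives terminal differentiation of myoblasts and binds many promoters together with Mef2. Of the Smart-seq2 muscle cells of EM and LM, 53.6% had *Myog* counts. *Mef2c* was found in 57.6% of the cells with *Myog* (48.4 to 66.4%) and in 20.4% of those without (13.2 to 29.2%), at 136.98 and 40.3 CPM. By day the shares were 65.5% and 25.8% at E12.5, 62.7% and 13.9% at E14.5, and 46.7% and 21.95% at E16.5. *Mef2a* was at 361.1 CPM in cells with *Myog* and 98.5 CPM in cells without, and *Mef2d* at 156.5 and 66.8 CPM. The cells with *Myog* were the higher ones for all 3 members, by level and by share. The median depth was 755531 counts with *Myog* and 679847 without. *Myog* was also among the LM markers, so this split follows the classes in part, and it is given as a description.

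**Figure D4:**
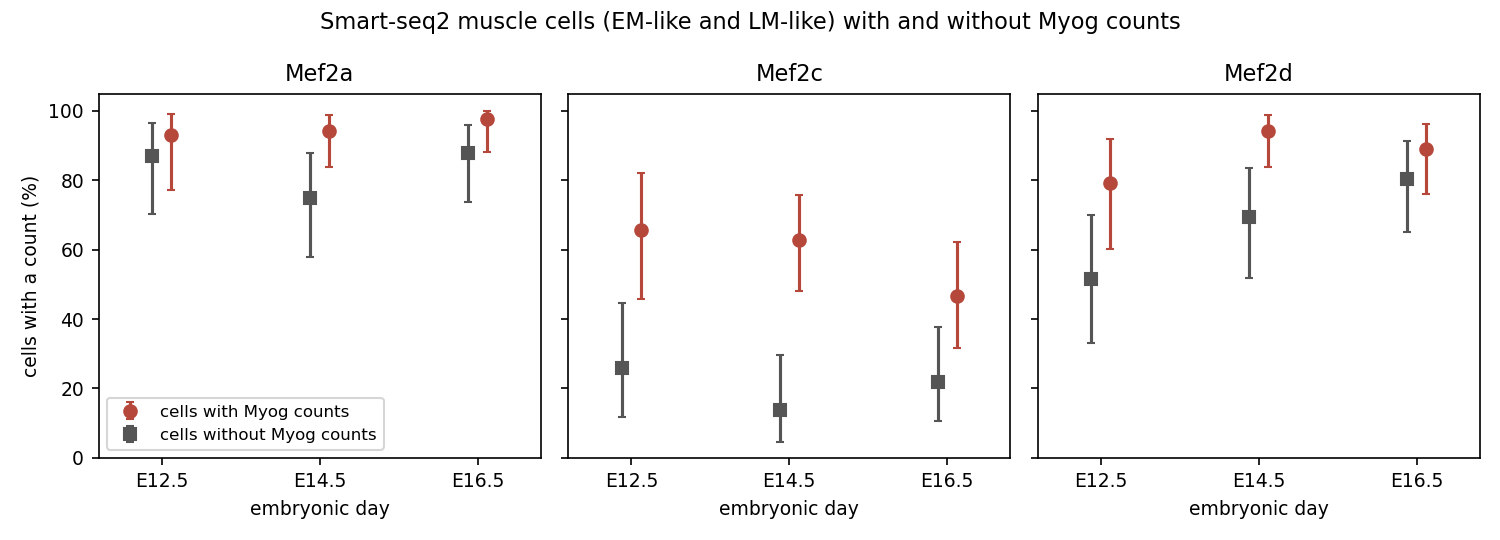
Share of Smart-seq2 muscle cells (EM and LM) with a count of each member on each of the 3 days, for cells with (circles) and without (squares) *Myog* counts, with exact 95% binomial intervals. For *Mef2c* the shares are 65.5, 62.7 and 46.7% with *Myog* and 25.8, 13.9 and 21.95% without.

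Between genes, Smart-seq2 levels were set side by side per length, as CPM per kilobase of the union of exons of all isoforms. In LM at E14.5 *Mef2d* was at 42.6, *Mef2a* at 36.4 and *Mef2c* at 8.92. At E16.5 they were at 23.1, 23.4 and 12.1. In DF at E16.5 *Mef2c* led, at 15.6 against 12.4 for *Mef2d* and 6.21 for *Mef2a*, whereas at E14.5 *Mef2d* was at 22.4, *Mef2a* at 9.29 and *Mef2c* at 6.04. In EM and LP *Mef2c* was the lowest of the 3 in every Smart-seq2 sum, at 0.645 to 2.24 against 5.57 to 9.22 for *Mef2a* and 7.68 to 15.2 for *Mef2d*. On 10x, which counts molecules and was not divided by length, *Mef2c* was the highest of the 3 in every LM and DF sum. In LM at E14.5 it was at 701 CPM there, against 176.9 for *Mef2a* and 42.1 for *Mef2d*. In DF at E14.5 the 10x values were 115.9, 60.6 and 40.7 CPM. The order of the 3 in LM and DF thus depended on the platform and measure.

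The genes whose level most followed each member were read over 30 sums of all classes, as the Pearson correlation of log2(CPM + 1) centred within platform, among 7647 genes. *Mef2a* was most like *Mef2d* (r = 0.84), and was also like *Pxn* (0.82), *Ipo4* (0.79) and *Zfp275* (0.78). *Mef2d* was in turn most like *Mef2a*, followed by *Golga2* (0.81), *Plec* (0.77), *Rxrb* and *Ubr4*. *Mef2c* was most like *Inpp4b* (0.77), *Syne1* (0.74), *Myof* (0.73), *Osbpl5* (0.71) and *N4bp3* (0.71). With *Mef2c*, *Mef2a* had an r of 0.46 and *Mef2d* of 0.44, and neither was among its 5. Sums of a pool share embryos and libraries, so these values are a description. On 10x alone 3 of the 5 genes returned for *Mef2c*, 3 for *Mef2d* and 0 for *Mef2a*, and on Smart-seq2 alone 0 of each.

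Genes known to work with Mef2 or to be its targets were followed as lists, each read against all genes tested. A gene named from a list with up to 5 called members was named after its values were seen. Of 16 tested muscle genes known as Mef2 targets, 12 were higher in LM than in EM and 0 lower, beside 6.91% and 18.3% of all genes tested, with a median log2 difference of 4.69 against -0.19 over all genes. Among them were *Acta1*, skeletal actin (6.96, SE 0.66), which rose from 1.42 to 7.73 CPM in EM to 149.2 to 1215 CPM in LM, and *Myl1*, a myosin light chain (6.54, SE 0.78). *Hrc*, a calcium-binding protein of the sarcoplasmic reticulum, was at 0 in 4 of 6 EM sums and at 19.5 to 45.2 CPM in LM. *Srpk3*, a muscle protein kinase, was at 0 in 4 of 6 EM sums and at 13.8 to 147.9 CPM in LM. The other target list, immediate early and Klf genes, moved the other way, as *Jun* (-1.13), *Nr4a1* (-3.48) and *Klf4* (-1.97) were lower in LM, 3 of 4 beside the 18.3% of all genes, with a median of -1.55. EM was itself named from *Myf5* and *Myod1* and LM from *Myog*, so the myogenic factors in the list, where *Myog* was higher and *Myf5* and *Tcf3* lower, follow from the naming for *Myog* and *Myf5*. LM was also named from contractile genes such as *Ttn*, *Neb* and *Tnnt2*. The rise of the muscle target list, though left out of the clustering, therefore follows in part from the naming.

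The regulators of Mef2 were read in the same comparison of LM with EM, in which 25.2% of all genes passed. Of 8 class IIa histone deacetylases and corepressors, 1 was higher, and *Hdac7* (-4.55) and *Cabin1* (-1.56) were lower. The median of the 8 was -0.19, equal to that of all genes. *Hdac7* was at 9.34 to 39.2 CPM in EM and at 0 in 3 of 5 LM sums. Of 6 coactivators, *Carm1* was lower (-1.24), with a median of -0.23. Of 11 kinases and calcineurin subunits, *Ppp3ca*, a catalytic subunit of calcineurin, was higher (1.06) and *Camk2d* (-2.14) and *Prkd1* (-6.34) lower, with a median of -0.49. *Prkd1* was low in both classes, at no more than 9.76 CPM.

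Between DF and LP, 3.39% of all genes passed as higher and 4.74% as lower. Of the 16 muscle targets tested, 0 were higher in DF by edgeR (0 at an unadjusted p under 0.05), a count near that background, and *Des*, *Hrc* and *Smyd1* were lower, at a median of -1.19 (-1.11 without *Smyd1*) against -0.04 over all genes. *Des*, the muscle intermediate filament, was at 0.390 to 5.22 CPM in DF and 18.1 to 30.3 CPM in LP. *Smyd1*, a muscle histone methyltransferase, had no count in any DF sum and at most 0.897 CPM in LP, so its fold is not given. *Hrc* (at most 2.33 CPM in DF and 3.09 in LP) and *Mamstr*, a muscle coactivator of Mef2 (-2.31), were near the floor in both. *Klf2* (-1.56) and *Klf4* (-1.38) were lower in DF. Among the regulators *Hdac5*, a class IIa deacetylase, was higher in DF (1.75, SE 0.35, edgeR adjusted p = 0.00359) and *Ppp3ca* was lower (-1.29).

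In bulk RNA, fewer cells of a type and less RNA per cell cannot be told apart. The 18 libraries held 3390851 to 35332908 counts. The column names do not carry the sign of Thy1, so Thy1+ and Thy1- libraries of a group were not separated. By the study's methods the cultures are wells of a triplicate and the sorted libraries technical duplicates, and the Pdgfra-/Cd36+ libraries stand for a single sort. The Pdgfra+ groups, sorted and cultured, also mix Thy1+ with Thy1- libraries. The p-values here therefore measure technical spread together with the difference between Thy1+ and Thy1- cells.

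In freshly sorted Pdgfra+ cells *Mef2c* was at 177.3, 16.3, 178.4 and 15.6 CPM in the 4 libraries, and in Pdgfra-/Cd36+ cells at 3.62 and 1.97 CPM. The 4 Pdgfra+ libraries lay at 2 levels but all were above the Cd36+ libraries. The edgeR difference was 4.82 on the log2 scale (SE 1.08, adjusted p = 0.00331), where 31.8% of genes passed. This p rests on technical duplicates and on the spread between Thy1+ and Thy1- libraries. *Mef2a* was at 131.2, 166.99, 113.9 and 134.7 CPM in Pdgfra+ and at 60.2 and 64.04 in Cd36+ cells, without overlap, a difference of 0.86 (SE 0.23, adjusted p = 0.00965). *Mef2d* was at 90.01, 51.9, 84.1 and 60.6 CPM against 37.2 and 57.9, with overlap, a difference of 0.33 (SE 0.38, adjusted p = 0.537). Without Cd36+ library 2, *Mef2c* differed by 4.44 (adjusted p = 0.0591) and *Mef2a* by 0.88 (adjusted p = 0.0794), and without Cd36+ library 1 *Mef2a* differed by 0.92 (adjusted p = 0.0671). LM markers added to 49.6 to 61.3 CPM in sorted Pdgfra+ and 24.2 to 24.3 CPM in Cd36+ libraries. Other lists differed more. DF markers added to 1189 to 6127 CPM against 30.72 to 34.83, and EM markers to 258.1 to 836.5 against 14.51 to 15.81. Pericyte markers added to 369.9 to 678.2 CPM against 80.12 to 94.7. Brown adipocyte markers went the other way, at no more than 954.2 CPM against 29020 to 31410, as did neural progenitor markers. The part of these markers in the differences was not tested.

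In culture all 3 members were lower than in sorted Pdgfra+ cells. *Mef2a* was at 15.0002 to 18.4 CPM in DMEM (median 16.1) and at 7.94 to 13.3 CPM in ADM (median 10.9), below the lowest sorted library of 113.9 CPM. *Mef2d* was at 5.52 to 8.33 CPM in DMEM (median 6.13) and at 3.37 to 6.87 CPM in ADM (median 4.80), below the lowest sorted library of 51.9 CPM. *Mef2c* was at 5.77 to 13.3 CPM in DMEM (median 8.88) and at 1.69 to 15.2 CPM in ADM (median 7.56), and every culture lay below the lowest sorted library of 15.6 CPM. On the TMM scale that the test uses, *Mef2c* in DMEM (7.03 to 15.1) and in ADM (4.21 to 17.3) overlapped the sorted range of 7.26 to 85.6.

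The edgeR differences between DMEM and sorted Pdgfra+ cells were -1.70 for *Mef2a* (adjusted p = 3.60e-07), -2.07 for *Mef2c* (adjusted p = 0.00902) and -2.15 for *Mef2d* (adjusted p = 8.27e-06), where 53.9% of genes passed, 33.6% as lower. Between ADM and sorted cells they were -1.87 (adjusted p = 1.51e-07), -2.18 (adjusted p = 0.00702) and -1.92 (adjusted p = 2.95e-05), where 56.9% of genes passed, 33.7% as lower. Over all genes the median difference was -0.31 for DMEM and -0.39 for ADM. By the labels the cultures are of E14.5 and the sorted cells of E16.5, and day and culture then cannot be told apart. Endothelial markers added to at least 98.4 CPM in sorted Pdgfra+ cells and to 14.9 to 33.8 CPM in the cultures. LM markers added to 49.6 to 61.3 and 12.2 to 39.5 CPM. DF markers added to 1189 to 6127 CPM sorted, 763.2 to 3264 in DMEM and 19.65 to 1678 in ADM. Pericyte markers went the other way, at 369.9 to 678.2 CPM sorted, 10280 to 21120 in DMEM and 1907 to 21180 in ADM. The part of these markers in the differences was not tested.

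No member passed between the adipogenic medium and DMEM, nor had an unadjusted p under 0.05 or passed with DESeq2. *Mef2c* averaged 7.85 ± 6.63 CPM in ADM and 9.22 ± 3.01 in DMEM (SD, n = 6 each), with a difference of -0.12 (SE 0.57, edgeR adjusted p = 0.933), where 9.16% of genes passed, 5.21% as higher and 3.94% as lower. These means stand between separate levels, since 3 ADM libraries were at 1.79, 1.69 and 2.04 CPM and the other 3 at 15.2, 13.1 and 13.3, and 3 DMEM libraries at 5.77 to 7.03 CPM and the other 3 at 10.7 to 13.3. Which of them are Thy1+ is not given by the column names, so no difference was computed within them. *Mef2a* averaged 10.7 ± 2.51 CPM in ADM and 16.51 ± 1.201 in DMEM, with no overlap on plain CPM. On the TMM scale *Mef2a* was 17.7 ± 3.69 and 19.8 ± 2.11 and overlapped, with a difference of -0.17 (SE 0.15, adjusted p = 0.518). *Mef2d* was at 4.98 ± 1.17 CPM in ADM and 6.398 ± 1.02 in DMEM, with a difference of 0.23 (SE 0.26, adjusted p = 0.623) and the opposite sign on library totals (-0.36). The TMM factors ran from 0.396 to 2.15. The 6 ADM libraries added to 1922 to 66040 CPM of brown adipocyte markers and the DMEM libraries to 4.91 to 27570 CPM.

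**Figure D5:**
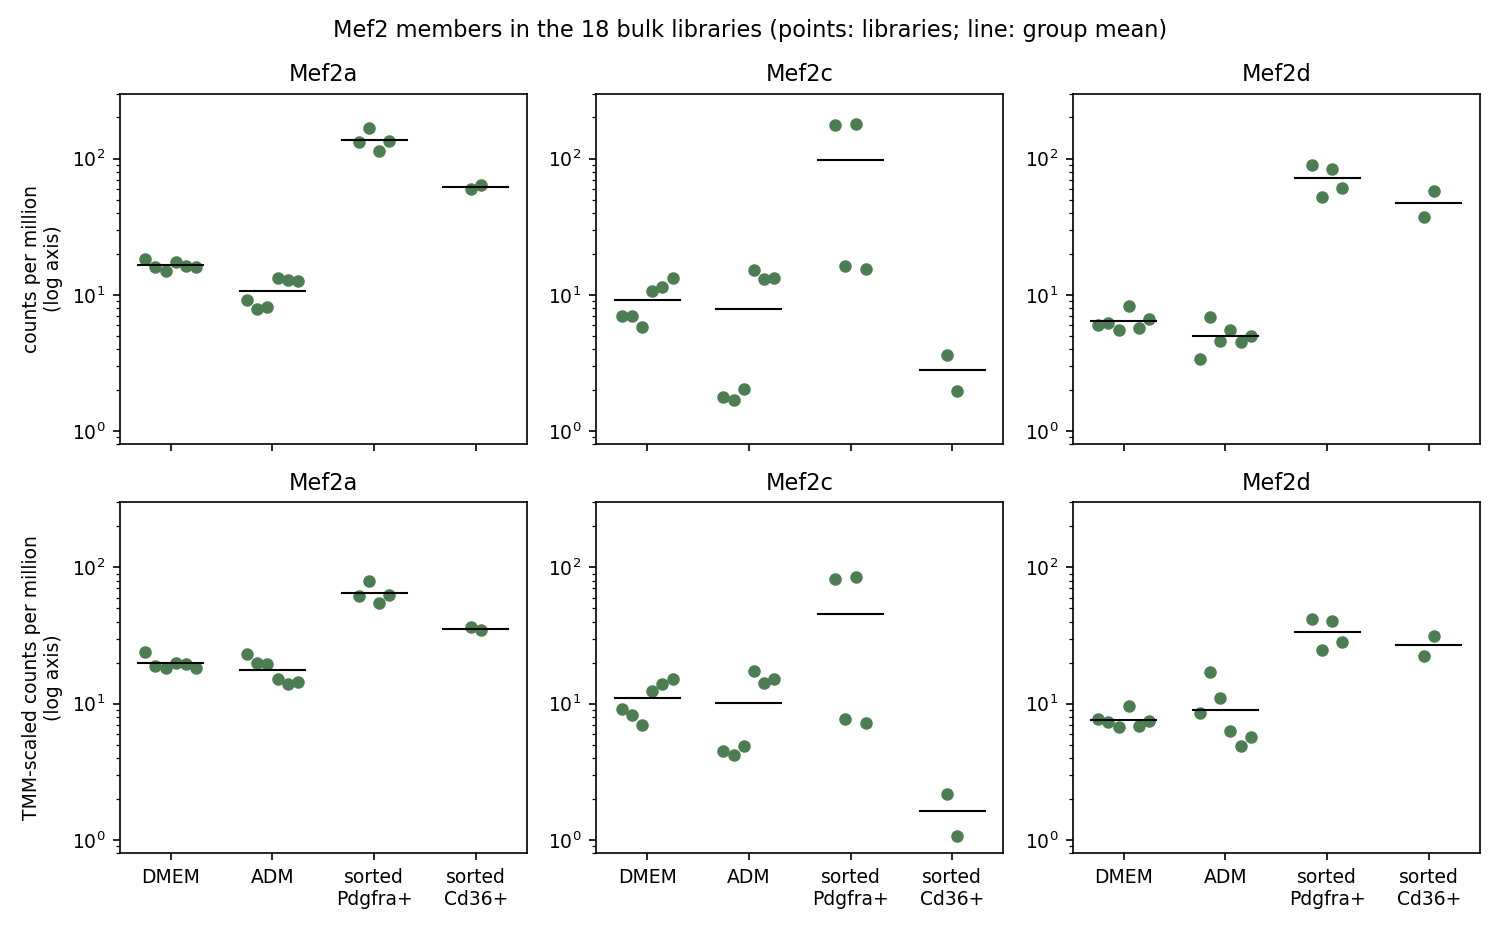
*Mef2a*, *Mef2c* and *Mef2d* in each of the 18 bulk libraries (log axis), as plain CPM above and TMM-scaled below, with the group mean as a line. The 4 sorted Pdgfra+ libraries hold *Mef2c* at 15.6, 16.3, 177.3 and 178.4 CPM, and both cultures hold *Mef2a* and *Mef2d* below the sorted groups.

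Among the listed genes, the kinase *Camk1* (-1.92, SE 0.35) and the deacetylase *Hdac7* (-0.99, SE 0.29) passed between ADM and DMEM, both lower in ADM. Of 18 muscle targets, 2 were higher and 1 lower at an unadjusted p under 0.05 and none passed, with a median of 0.01 against -0.02 over all genes. Between the cultures and sorted Pdgfra+ cells all 4 immediate early and Klf genes were lower in both media, beside 33.6% of all genes in DMEM and 33.7% in ADM, with medians of -3.56 in DMEM and -3.94 in ADM. *Nr4a1* was at 781 to 878 CPM in sorted Pdgfra+ cells, 4.98 to 15.1 CPM in DMEM and 0.496 to 15.6 CPM in ADM. Of the 18 muscle targets, 3 were higher and 5 lower in DMEM, beside 20.2% and 33.6% of all genes. In ADM 5 were higher and 5 lower, beside 23.3% and 33.7%. Their medians were -0.72 in DMEM and -1.29 in ADM, against -0.31 and -0.39 over all genes. *Acta1*, in this list, was at 7.34 to 53.1 CPM sorted, 494.1 to 1142 CPM in DMEM and 121.4 to 2178 CPM in ADM. *Myf5* and *Xirp2* had no count in any of the 12 cultures, at 0.544 to 1.501 and 0 to 3.61 CPM in sorted Pdgfra+ cells. Smooth muscle markers, which include actins, added to 11020 to 22410 CPM in DMEM and 2018 to 22670 CPM in ADM, against 224.1 to 350 CPM in sorted Pdgfra+ cells.

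Sorted Pdgfra+ cells exceeded Cd36+ cells in all 5 tested myogenic and E proteins, beside 18% of all genes that passed as higher, among them *Myod1* (1.205 to 3.45 CPM against 0 to 0.212) and *Myf5* (0.544 to 1.501 against 0.0304 to 0.0804). The deacetylase *Hdac7* was at 25.1 to 33.2 CPM in Pdgfra+ and 1.93 to 2.85 CPM in Cd36+ cells (3.33, SE 0.49), and 3 of 8 deacetylases and corepressors were higher, beside the same 18%. Of 18 muscle genes known as Mef2 targets, 5 were higher and 1 lower, beside 18% and 13.8% of all genes. Their median log2 difference was 1.12, against 0.05 over all genes. *Ppargc1a*, a coactivator of mitochondrial and brown fat genes and in this list, was lower in Pdgfra+ cells (-6.01, SE 1.45). It was at 4.33 to 13.4 CPM there and at 436.8 to 462.3 CPM in Cd36+ cells.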

How the data were processed

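RNA was measured in sorted single cells and in bulk samples of *Pax7*-lineage cells. Per the labels and the study's methods, the authors made the 10x counts with Cell Ranger (UMI counts per gene and cell), the Smart-seq2 expected counts with kallisto 0.44.0 (estimated counts per gene, rounded to whole numbers here after summing), and the bulk counts, read as whole-number counts from the deposited table. The build named is mm10.

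Cells without a YFP count, cells with more than 8% mitochondrial counts, Smart-seq2 cells with fewer than 4000 genes and 10x cells with more than 15000 UMIs were left out. Of 3916 cells, 3852 were kept. The 10x libraries shared 3 barcodes, and called doublets (8, 8 and 7) were kept. Platforms were integrated and clustered with Seurat 5.3.0 (R 4.3.3, 2000 variable genes, 30 principal components, resolution 0.8), without the Mef2 factors and the listed genes. A cluster was named from markers where its best score reached 0.8 and at least 3 markers were each in at least 5% of its cells, a limit set after the first names were seen. The markers so found also had to be no fewer than the remaining markers of the list, on each platform with at least 10 cells of the cluster. Counts of a class in a pool were summed where it had at least 20 cells (19 sums) and tested with edgeR 4.0.16 (quasi-likelihood, TMM, low-count filter, Benjamini-Hochberg, threshold 0.05). Tests between classes had the platform and day together as a block, and tests between days had platform as a term. Bulk libraries, technical duplicates when sorted and triplicate wells when cultured per the study's methods, were tested in 1 fit of 4 groups. DESeq2 1.42.0 was an alternative. The planned tests of Thy1+ against Thy1- cells and of their interactions could not be run, since the bulk column names write both signs alike.

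On simulated data with known changes, the LM and EM test recovered 59% of 4-fold and 11% of 2-fold changes over 13048 genes. The ADM and DMEM test recovered 57% and 24% over 17586 genes, and the DF day test 18% and 1% over 13048 genes. False calls were 5.41%, 3.57% and 13.64% of the calls. The counts were drawn from 1 mean per gene over all sums or libraries. Apart from the changes put in, they held no platform, day or class effects, unlike the real data. The Mef2 factors and the gene lists were chosen with earlier results of these data known. The text names the 3 factors throughout, the 4 listed genes with the largest passing change in LM against EM, DF against LP and each bulk comparison, and the 5 genes most like each factor. Some genes that this rule names are not reported here. Whether replicate numbers pair the bulk libraries could not be decided, since the groups mix Thy1+ and Thy1- libraries. Intervals cover counting error only.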

Additional observations from a re-analysis of the deposited data

Results flagged for a closer look

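Each Mef2 factor was tested for a library far from the others in each bulk group of 4 to 10 libraries. Of these 9 combinations of factor and group, 2 had one, both in DMEM. Chance gives about 1 in 20, but the 9 share libraries and are not separate groups. *Mef2a* in 1 DMEM library was 23.9 TMM-scaled CPM, while the other 5 lay between 18.3 and 19.9. *Mef2d* in another DMEM library was 9.55 TMM-scaled CPM, while the other 5 lay between 6.72 and 7.78. Without its far library the difference between ADM and DMEM was -0.10 for *Mef2a* and 0.30 for *Mef2d* (log2), and neither passed the test (edgeR adjusted p = 0.715 and 0.553). Of 18 tests of whether a difference on these genes itself differed between platforms or between classes over days, none passed after adjustment over all genes in edgeR, and 2 had an unadjusted p under 0.05, both for *Mef2c* between E14.5 and E16.5 (DF less LM, 2.12 log2, SE 0.68, adjusted p = 0.136, and DF less LP, 1.58, SE 0.70, adjusted p = 0.763).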

How the results depend on the processing

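Under alternatives other than leaving out a pool or library, the values of the Mef2 factors kept their direction and side of the threshold with 19 exceptions between classes, 2 between days and 1 in bulk. Scaling by library totals, summing same-numbered libraries and leaving out LP cluster 3 were chosen after seeing the data. The cause of the changes below was not tested.

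Log2 differences that turned were *Mef2a* DF less LP (0.066 in Smart-seq2 alone), *Mef2c* EM less LP (-0.036 in 10x alone, -0.15 with DESeq2, -0.14 with its size factors, -0.00374 at resolution 0.4), *Mef2c* in EM between E12.5 and E16.5 (0.18 with the listed genes kept in the clustering), and, with library totals, *Mef2d* in DF between days (-0.15) and ADM less DMEM (-0.36). *Mef2c* LM less DF passed the test at 1.90 in 10x alone, 0.90 with each platform clustered alone, 0.85 with library totals, 0.93 with the listed genes kept and 1.07 without LP cluster 3. *Mef2d* no longer passed in DF less EM (0.82 in 10x, 0.66 in Smart-seq2, 0.59 without LP cluster 3), DF less LP (0.89, 0.93, 0.71 with each platform clustered alone and 0.66 without LP cluster 3) and LM less DF (0.41 in 10x, 0.52 at resolution 0.4).

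Leaving out 1 pool, *Mef2a* DF less LP ranged from -0.46 to 0.0045 and *Mef2c* EM less LP from -0.13 to 0.40, both turning without Smart-seq2 E16.5. *Mef2c* LM less DF ranged from 0.17 to 1.49 and passed without any 1 Smart-seq2 pool. *Mef2d* DF less EM ranged from 0.59 to 0.70, losing its call without any 1 pool but 10x E12.5. *Mef2d* DF less LP ranged from 0.79 to 1.06, losing its call without 10x E14.5, 10x E16.5 or Smart-seq2 E14.5. Between E14.5 and E16.5, *Mef2c* ranged from 1.08 to 2.01 in DF (passing at 1.55 without 10x E14.5), from -0.062 to 1.16 in EM and from -1.20 to 0.69 in LM, and *Mef2d* from -0.57 to 1.06 in DF, from -0.65 to 0.75 in EM and from -0.81 to 1.28 in LM. Leaving out 1 bulk library, *Mef2c* ADM less DMEM ranged from -0.35 to 0.041, turning without ADM library 1, 2 or 3, and *Mef2d* from -0.065 to 0.32, turning without ADM library 2. Sorted Pdgfra+ less Pdgfra-/Cd36+ ranged from 0.75 to 0.93 for *Mef2a*, losing its call without either Pdgfra-/Cd36+ library, and from 4.33 to 5.44 for *Mef2c*, losing it without the second.

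The share of tested genes past the threshold, in 10x alone and in Smart-seq2 alone, each with its own tested genes and with a count over 1.5 times lower, was 28.8% and 6.09% in DF less EM (25.9% with both), 8.78% and 0.317% in DF less LP (8.12%), 36.1% and 10.3% in EM less LP (32.7%), 37.6% and 23.3% in LM less DF (41.9%), 18.2% and 9.27% in LM less EM (25.2%), and 40.3% and 26.3% in LM less LP (45.4%). With each platform clustered alone it was 1.76% in DF less LP, 11.5% in EM less LP and 23.9% in LM less LP. DF less LP gave 4.94% with a minimum of 10 cells, 5.69% without LP cluster 3 and 11.4% with only its classes fitted. Without 1 pool it ranged from 13.7 to 28.9% in DF less EM, from 3.33 to 11.2% in DF less LP and from 18.7 to 34.9% in EM less LP, each lowest without 10x E14.5. Between days DESeq2 gave 0.345% in DF (0.582% in edgeR), 3.901% in EM from E12.5 (6.3%), 0.153% in EM from E14.5 (0.559%) and 1.79% in LM (4.04%), and without 1 pool edgeR gave 0.00852 to 5.02%, 0.295 to 12.4%, 0 to 4.40% and 0 to 10.2%. ADM less DMEM (9.16%) gave 18.5% with DESeq2, 4.94% with library totals, 5.69% with only its groups, and 3.08 to 15.9% without 1 library, lowest without ADM library 1 and highest without ADM library 4. Sorted Pdgfra+ less Pdgfra-/Cd36+ (31.8%) gave 11.2 to 33.6% without 1 library, lowest without the second Pdgfra-/Cd36+ library. Of the genes called between ADM and DMEM, 56.96% were higher in ADM, against 70.3% with DESeq2 size factors and 21.1% with library totals. Between cultures and sorted Pdgfra+ cells library totals moved the median of all genes to -1.64 in DMEM and -2.11 in ADM, and the calls higher in culture from 37.5% to 5.75% and from 40.9% to 6.52%.

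With the replicate number as a block, 2.51% of genes passed in ADM less DMEM, with differences of -0.16, -0.12 and 0.21 for *Mef2a*, *Mef2c* and *Mef2d*. The block changed no call on these genes. Deviations of same-numbered libraries from their group means had correlations from -0.65 to 0.41. The groups mix Thy1+ and Thy1- libraries, so these values cannot show whether same-numbered libraries deviate together. With same-numbered libraries of a group summed, 26.5% of genes passed in ADM less DMEM and 52.3% in sorted Pdgfra+ less Pdgfra-/Cd36+.

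Thinned to 1000 UMIs, 10x cells with *Mef2a* were 4.37% of DF, 3.68% of EM, 13.8% of LM and 6.47% of LP, with *Mef2c* 15.6%, 2.51%, 33.96% and 1.70%, and with *Mef2d* 4.37%, 2.32%, 6.29% and 2.73%. Thinned to 100000 counts, Smart-seq2 cells with *Mef2a* were 78.1% of EM and 84.1% of LP. *Mef2c* in 10x was 192.97 CPM in DF and 630 CPM in LM at resolution 0.4, and 624 CPM in LM with the listed genes kept. Of the 5 genes most like each factor, 10x alone named 0 again for *Mef2a*, 3 for *Mef2c* and 3 for *Mef2d*, and Smart-seq2 alone named 0 for each.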

Other observations

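The bulk table's column names give the medium and the number of a library but not the sign of Thy1, so each library's *Thy1* is given here beside its *Mef2c*, as values only. In sorted Pdgfra+ cells *Thy1* was at 109.3, 5.87, 86.2 and 4.77 CPM, in libraries with *Mef2c* at 177.3, 16.3, 178.4 and 15.6 CPM. In DMEM *Thy1* was at 5.97, 8.06, 9.03, 59.1, 64.8 and 54.7 CPM, in libraries with *Mef2c* at 7.02, 7.03, 5.77, 10.7, 11.5 and 13.3 CPM. In ADM *Thy1* was at 0.992, 1.43, 2.38, 32.3, 25.6 and 28.6 CPM, in libraries with *Mef2c* at 1.79, 1.69, 2.04, 15.2, 13.1 and 13.3 CPM. In each of these 3 groups the *Thy1* values fell into separate clusters of equal size. In sorted Pdgfra-/Cd36+ cells *Thy1* was at 5.11 and 6.77 CPM and *Mef2c* at 3.62 and 1.97 CPM. No comparison was made on these values.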
